A study of Cornus officinalis with 7 samples.

Results

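The unigenes described here are transcripts of *C. officinalis* that were abundant in pericarp and low in most of the rest of the plant. A unigene is a sequence assembled *de novo* from the RNA-seq reads, and its expression is given as FPKM, the fragments per kilobase of unigene scaled to the mapped fragments of a library. A unigene was kept when its FPKM in each of young leaf, mature leaf, young stem, seed and inflorescence was below 10% of its FPKM in pericarp, and the 200 with the highest pericarp FPKM were taken as members. Mature stem had no part in the choice. The rule was passed by 7149 of 304371 unigenes, which are 5.45% of the 131116 unigenes above 0 in pericarp, and the 200 members are the most abundant of these. The level in pericarp and the low levels in the 5 other tissues chose the members, so these values are given as a description and without a test. RNA came from 12-year-old plant material of a medicinal garden, under a single material number for all 7 tissues. Each tissue was sequenced as 1 strand-specific library and no treatment was applied. No difference between tissues therefore has a replicate check, and no SD, interval or p-value can be given.

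The pericarp is the wall of the fruit. In *C. officinalis* it forms the red flesh around the stone, and dried it is the part used as a herbal medicine, known for its iridoid glycosides loganin and morroniside. The transcripts of a fleshy fruit wall commonly include large amounts from a small number of genes, for example those for enzymes that loosen cell walls, for defence proteins and for pigment synthesis. Such a transcript profile is read by comparing the fruit wall with other organs. Apart from lists of enzymes, the sources used here did not pair identifiers with gene names, and no sequences were used, so members are called by their identifiers and most of them have no stated function. For the same reason the tissue labels could not be checked against marker genes.

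The mature stem library stood apart from the others. Of its 70055 unigenes above 0, 80.6% were listed at 0 in all 6 other tissues, against 2.93% to 6.29% in those tissues. FPKM holds no read counts, and the relative depth was read from the most frequent ratio of values among unigenes above 0 in pericarp and 1 other tissue alone. Relative to pericarp, 1 fragment was worth 0.685 times the FPKM in young stem, 0.728 times in seed, 0.786 times in young leaf, 0.794 times in mature leaf and 1.20 times in inflorescence. By this measure young stem, seed and both leaves were deeper than pericarp, and inflorescence was shallower. The most frequent ratio was shared by 15.0% of the unigenes used for inflorescence and up to 24.8% of those for seed. That it comes from equal numbers of fragments is assumed and could not be checked. For mature stem the most frequent ratio was shared by 1.21% of 1155 unigenes, too few to read a depth. A value of 0 can also be a failed estimate, and such unigenes are described as listed at 0.

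A few unigenes held almost all of the expression of the 200 members. Their summed pericarp FPKM was 34733 of 975250, or 3.56%. Here and below, a share of a library is a share of its summed FPKM, which is scaled by length, and not of its fragments. The most abundant 4 members supplied 86.9% of the members' sum and 3.10% of the library, while the remaining 196 supplied 0.465% of the library. The pericarp FPKM of the members ran from 11302 down to 9.15 with a median of 12.7, and 4 members reached an FPKM of 1000, 8 reached 100, 23 reached 50 and 49 reached 20. In bulk tissue, a transcript made by fewer cells and one with less RNA per cell cannot be told apart. Members took 3 of the 10 places of highest FPKM in pericarp, 4 of the highest 100 and 8 of the highest 1000. Of the 13275 unigenes at or above the level of the last member, 1.52% passed the rule, and at this level most transcripts were shared with other tissues. The median level of these 13275 unigenes was 83.6% of the pericarp FPKM in seed, 85.6% in inflorescence, 89.4% in young stem, 77.6% in young leaf and 67.6% in mature leaf.

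**Figure D1:**
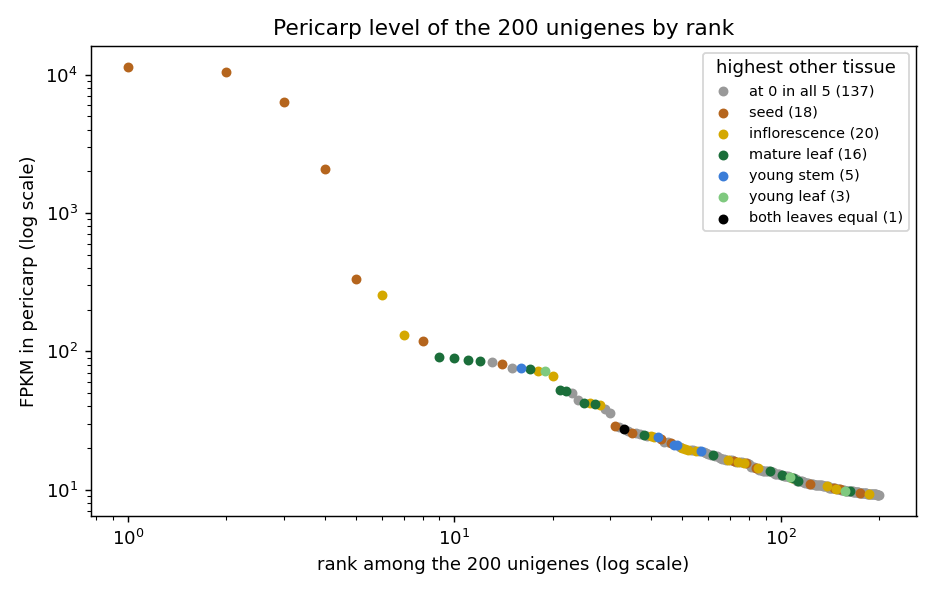
FPKM in pericarp (log scale) against rank (log scale) for the 200 unigenes, 1 point each, with the colour giving the tissue of highest FPKM among the 5 others. The first 4 points lie between 2092 and 11302 and have seed as their highest other tissue, and from rank 5, at 335, the values fall steadily to 9.15.

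Unigene290988 was the most abundant member, and only Unigene139399 and Unigene259514, which were not members, had a higher FPKM in the pericarp library. Its FPKM was 11302 in pericarp, 919.7 in seed, 101.7 in inflorescence, 0.70 in young leaf, 0.64 in mature leaf and 0.14 in young stem, and it was listed at 0 in mature stem. Its transcript was thus measured at a high level in the fruit, at a lower one in the inflorescence and at almost none in leaf and stem. Unigene073630 followed with an FPKM of 10503 in pericarp, 562.9 in seed, 428 in young stem, 226 in mature leaf, 130 in inflorescence, 128 in young leaf and 4.85 in mature stem. Unlike Unigene290988, it was present at an FPKM above 100 in every tissue but mature stem, and it belongs to the members only because its pericarp level was so much higher. Unigene222123 had an FPKM of 6303 in pericarp, 340 in seed, 173 in young stem, 144 in mature leaf, 77.0 in young leaf, 9.27 in inflorescence and 0.74 in mature stem. Its order of tissues was that of Unigene073630 except that inflorescence came below both leaves. Unigene290984 had an FPKM of 2092 in pericarp, 170 in seed, 80.9 in inflorescence, 13.3 in young stem, 4.83 in mature leaf, 4.42 in young leaf and 0.13 in mature stem. Like Unigene290988, it was higher in inflorescence than in leaf or stem.

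Seed was the second tissue of all 4 leading members, at 8.14% of the pericarp FPKM for Unigene290988 and Unigene290984, 5.40% for Unigene222123 and 5.36% for Unigene073630. None of them would pass a limit of 5%, and the 200 unigenes chosen at that limit held 0.422% of the pericarp sum in place of 3.56%. The inflorescence level separated these members further, with 3.87% of the pericarp FPKM for Unigene290984, 1.24% for Unigene073630, 0.90% for Unigene290988 and 0.147% for Unigene222123. In young stem it was 4.08% for Unigene073630 and 2.75% for Unigene222123, against 0.636% for Unigene290984. The same 4 unigenes also supplied most of what the members had elsewhere, from 90.2% of their summed FPKM in inflorescence to 97.3% in seed, whereas in mature stem they supplied 0.238%. Summed over all members, 0.231% of the seed library lay on these unigenes, 0.0728% of young stem, 0.0448% of mature leaf, 0.0378% of inflorescence and 0.0237% of young leaf.

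The most abundant member lay among other members in the numbering of the assembly. Unigene290983, Unigene290984, Unigene290986, Unigene290988 and Unigene290992 were all members, and seed was the second tissue of each. Unigene290986 had an FPKM of 335 in pericarp and 16.0 in seed, and was listed at 0 in the other 5 tissues. Unigene290992, with 28.9 in pericarp and 2.61 in seed, was likewise listed at 0 elsewhere, and Unigene290983 had 15.6 in pericarp, 1.26 in seed and 0.62 in young leaf. The seed level of the 5 unigenes lay between 4.78% and 9.03% of that in pericarp. Other unigenes with numbers between these were not members, and differed in their leaf, stem or inflorescence levels. Unigene290985 had an FPKM of 1942 in pericarp but also 827 in mature leaf, 822 in young stem, 739 in young leaf, 585 in inflorescence and 135 in seed, so that it failed the rule by its leaf and stem levels while its seed level was the lowest of the 6 tissues. Unigene290989 had 133 in pericarp, 10.1 in seed, 152 in mature leaf and 148 in young stem, and Unigene290990 had 108 in mature leaf against 1.30 in pericarp. Unigene290987 had 18.7 in pericarp, 1.21 in seed and 5.02 in young stem. The seed level of Unigene290985, Unigene290987 and Unigene290989 was also below 10% of that in pericarp, so a low seed share was not particular to the members. Whether the neighbouring numbers are pieces or copies of 1 gene was not tested, since their sequences were not used.

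In all, 21 of the 200 members had another member within 5 numbers, in 8 groups of which this one was the largest. Unigene126078, Unigene126079 and Unigene126080 had a pericarp FPKM of 11.5, 17.6 and 13.7 and were listed at 0 in the 6 other tissues. Unigene063750, Unigene063754 and Unigene063758 had 22.0, 13.8 and 19.2, and were listed at 0 elsewhere as well. The remaining 5 groups were pairs, from Unigene260275 with 76.2 beside Unigene260274 with 9.19 to Unigene291371 and Unigene291372 with 24.5 and 24.2. Among the 200 unigenes that the same rule gives for seed and for inflorescence, 27 and 40 had such a neighbour, with 7 unigenes in the largest group of either list. Members that share a locus would not be separate genes, and the number of genes behind the 200 unigenes is not known.

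Most members had no value in the 5 other tissues of the rule. A total of 137 (68.5%) were listed at 0 in all 5 other tissues, against 96.1% of the 7149 unigenes that passed the rule. A unigene above 0 in pericarp and at 0 in these 5 always passes the rule. Of all 13275 unigenes at or above the level of the last member, 139 were at 0 in all 5. Of the 131116 unigenes above 0 in pericarp, 5.24% were. Most unigenes that passed were of low level, with a median pericarp FPKM of 2.04, and 28.6% of them were below an FPKM of 1. The other 63 members were above 0 in at least 1 of the 5 tissues: 26 in exactly 1, 13 in 2, 10 in 3, 7 in 4 and 7 in all 5. Their highest other tissue stood at a median of 5.09% of the pericarp FPKM. It was below 1% for 4 of them, between 1% and 5% for 26 and between 5% and 10% for 33. Inflorescence was the second tissue of 20 members, seed of 18, mature leaf of 16, young stem of 5 and young leaf of 3, and Unigene012638 had 1.02 in both leaves against 27.6 in pericarp. Although inflorescence was second more often than seed, the seed group held 3.17% of the pericarp sum and the inflorescence group 0.0859%. Some of the second values were low, down to an FPKM of 0.03 in inflorescence. With a second tissue counted only from an FPKM of 1, seed kept 13 of its 18 members. The order of inflorescence and seed by count therefore depends on values near 0.

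**Figure D2:**
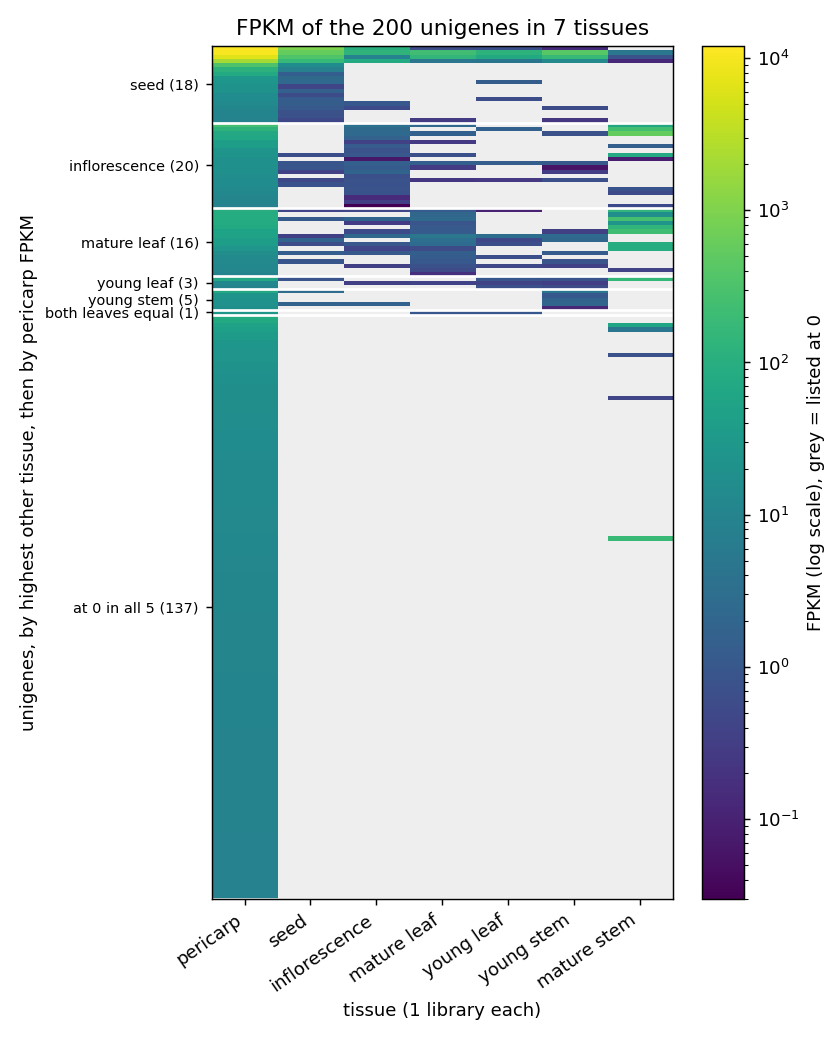
FPKM on a log colour scale for the 200 unigenes (lines) in 7 tissues (columns, 1 library each), grouped by the tissue of highest FPKM among young leaf, mature leaf, young stem, seed and inflorescence, with grey for values of 0. The 137 unigenes of the lowest block have no value in these 5 tissues, and the values in mature stem lie mostly in the inflorescence and mature leaf blocks.

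Of the 18 members with seed as second tissue, 9 were listed at 0 in both leaves, young stem and inflorescence. The group with inflorescence as second tissue was alike in this, with 10 of 20 at 0 in the other 4. Of the seed group, 3 unigenes, all among the leading 4, were above 0 in mature stem. Unigene145938 had an FPKM of 118 in pericarp and 8.15 in seed and was listed at 0 in every other tissue. Unigene067607 had 81.3 in pericarp and 1.44 in seed, and it too was listed at 0 elsewhere. The seed level of the group ran from 1.77% of the pericarp FPKM for Unigene067607 to 9.79% for Unigene304219, with a median of 7.18%. Of the 5 groups by second tissue, this one had the highest median, but the rule sets the ceiling at 10% for every tissue.

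Members with inflorescence as second tissue had a lower level there, with a median of 3.37% of the pericarp FPKM. The most abundant were Unigene001444, at 253 in pericarp and 3.65 in inflorescence, and Unigene260398, at 132.0 in pericarp and 2.54 in inflorescence. Of the 20 unigenes of this group, 10 were listed at 0 in leaf, young stem and seed. Unigene026147 was such a unigene, at 66.8 in pericarp and 1.76 in inflorescence. Mature leaf was the second tissue of 16 members, at a median of 4.02% of the pericarp FPKM. Unigene302735 had 91.5 in pericarp, 1.19 in mature leaf and 0.47 in inflorescence, and Unigene055979 had 89.3 in pericarp and 2.08 in mature leaf. In these groups, 9 of the 20 and 9 of the 16 unigenes were above 0 in mature stem, a tissue that the rule did not use. Young stem led the other tissues for Unigene284435, with 75.4 in pericarp, 4.74 in young stem and 3.05 in seed, and for Unigene218394, with 23.8 in pericarp and 1.06 in young stem. Its neighbour in number, Unigene284436, was far more abundant in pericarp at 5308 but failed the rule with 1138 in inflorescence. Young leaf was second for Unigene237499, at 71.9 in pericarp, 0.97 in young leaf, 0.90 in seed and 0.85 in young stem, and for Unigene278850, at 12.2 in pericarp and 0.43 in young leaf. In mature stem, Unigene237499 was higher than in pericarp, at 163.

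The 137 members listed at 0 in all 5 other tissues were mostly of modest level. Their pericarp FPKM ran from 9.15 to 83.0 with a median of 11.0, and together they held 0.203% of the pericarp library. Only 2 of them were among the 20 most abundant members. They made up 51 of the first 100 members and 86 of the last 100, so that the share without a value in these 5 tissues was larger at the lower levels. In mature stem, 5 of the 137 were above 0. Unigene028834 had the highest level, with an FPKM of 83.0 in pericarp and 0 in all 6 other tissues. Unigene260275 was also listed at 0 in the 6 other tissues, at 76.2 in pericarp. Unigene184169, by contrast, had 50.01 in pericarp and 58.7 in mature stem. Some values recurred to the last digit. Pericarp FPKM values of 9.22 and 9.39 were each shared by 8 members, and 47 members shared their value with at least 1 other. How many fragments stand behind such values cannot be given without unigene lengths, so the precision of the lower levels is unknown.

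Mature stem was not used to choose the members. There 173 of the 200 (86.5%) were listed at 0. The share was 70.6% among the 13275 unigenes at or above the level of the last member in pericarp. It was 83.4% among all unigenes that passed the rule and 77.0% among all 304371 unigenes. The other 27 members were of different kinds. For 11 of them the mature stem FPKM was above 0 but below 10% of the pericarp FPKM, among them Unigene073630, Unigene222123 and Unigene290984. For 16 members (8.0%) it reached at least 10% of the pericarp FPKM, which held for 0.535% of the 13275 unigenes of that level. For 12 of these, mature stem was above pericarp, against 26 (0.196%) of the 13275. Of all 7149 unigenes that passed the rule, most of which were of lower pericarp level, 1095 (15.3%) were above pericarp in mature stem. The members chosen as preferring pericarp among 6 tissues thus include 12 whose highest FPKM of all 7 tissues was in mature stem.

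Unigene264556 had the highest value of any member in mature stem, with an FPKM of 572.8, against 72.4 in pericarp, 2.43 in inflorescence, 1.65 in mature leaf, 0.73 in young stem and 0 in young leaf and seed. Unigene231946 had 274 in mature stem and 86.6 in pericarp, followed by 2.55 in mature leaf, 1.90 in inflorescence and 1.18 in seed. Unigene260398 had 254 in mature stem and 132.0 in pericarp, and Unigene284968 had 229 and 52.8. These transcripts were measured at a high level in mature stem and pericarp and at a few FPKM at most in the 5 other tissues. Unigene267129 differed most between the tissues, with 176 in mature stem, 12.6 in pericarp and 0 in all others. Over the 12 members that were higher in mature stem, its level was 1.17 to 14.05 times that of pericarp with a median of 2.71. Unigene001444, Unigene055979, Unigene291913 and Unigene227860 had a mature stem level of at least 10% of that in pericarp but below it, with mature stem values of 64.6, 18.2, 24.5 and 4.70. Unigene302735, with 148, and Unigene235240, with 147 in mature stem and 74.0 in pericarp, were above it. Summed over the 16 members, the FPKM was 2389 in mature stem and 1206 in pericarp, but 17.0 in mature leaf, 14.2 in inflorescence, 3.78 in seed, 3.43 in young leaf and 1.92 in young stem.

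Among the members with a high mature stem level, mature leaf was the most frequent second tissue. Mature leaf was second for 8 of the 16 and inflorescence for 4, while seed and young stem were second for none and 3 were listed at 0 in all 5 tissues. Of the other 184 members, 134 were listed at 0 in all 5 tissues, seed was second for 18, inflorescence for 16 and mature leaf for 8. Among the 18 members of rank 6 and below that reached a pericarp FPKM of 50, 11 had a mature stem level of at least 10% of that in pericarp and the other 7 were listed at 0 in mature stem. Unigene145938, Unigene028834, Unigene067607, Unigene260275, Unigene284435, Unigene026147 and Unigene134814 were these 7. With mature stem also required to be below 10%, the 200 unigenes chosen included 184 of the members and held 3.45% of the pericarp sum. Of the unigenes above 0 in mature stem, 80.6% had no value in any other tissue, and the part of this library in the result was not tested.

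**Figure D3:**
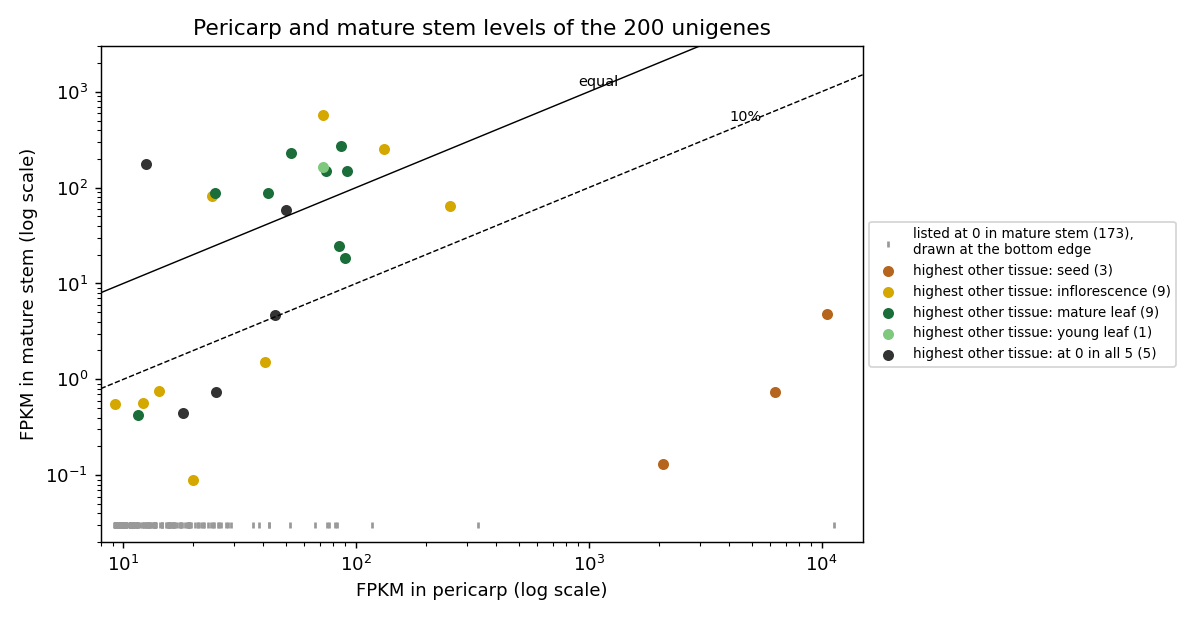
FPKM in mature stem against FPKM in pericarp (both log scales) for the 200 unigenes, coloured by the tissue of highest FPKM among the 5 others, with lines where mature stem equals pericarp and where it is 10% of it. The 12 points above the upper line have a mature stem FPKM between 58.7 and 572.8, and the 173 unigenes at 0 in mature stem are marked along the bottom edge.

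Unigenes at both edges of the rule differed little. The last members were Unigene222997 and Unigene260274 with a pericarp FPKM of 9.19 and Unigene064382 with 9.15, and the next unigenes were Unigene145353 and Unigene213896, also with 9.15 and placed after it by their identifiers, and Unigene147993 with 9.12. At the limit of 10%, Unigene120498 had 9.89% of its pericarp FPKM in inflorescence, Unigene304219 had 9.79% in seed and Unigene248297 had 9.74% in young stem. Just outside were Unigene142707 with 10.1% in inflorescence and Unigene031273 and Unigene052777 with 10.2% in seed. With 1 library per tissue, a difference of this size has no error to be read against. The most abundant unigenes that failed were expressed in several organs. Unigene139399 had the highest FPKM of the pericarp library, 21483, with 4736 in young stem and 4543 in mature leaf, and Unigene259514 had 15131 in pericarp and 5847 in seed. Unigene285931 had 9064 in pericarp and 2984 in young stem, Unigene173159 had 7864 and 7247 in the same tissues, and Unigene099052 had 8736 in pericarp and 9354 in inflorescence.

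**Figure D4:**
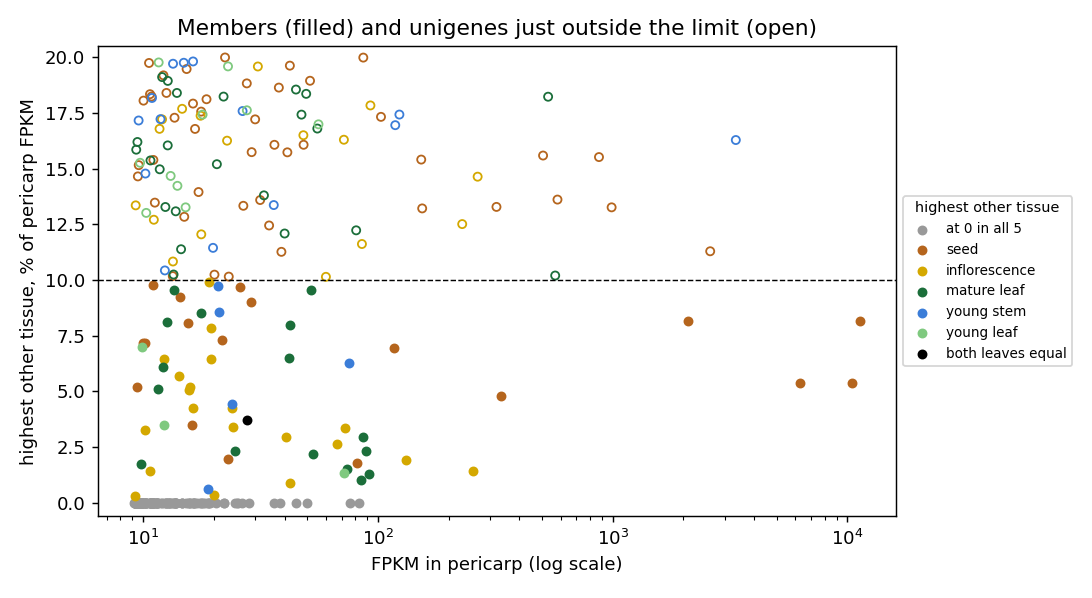
The highest FPKM of the 5 other tissues, in percent of the pericarp FPKM, against the pericarp FPKM (log scale), coloured by that tissue. Filled points are the 200 members below the limit of 10% (dashed line) and open points are the 109 unigenes at or above 9.15 in pericarp that lie between 10% and 20%, among which seed is the most frequent second tissue with 45.

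The same rule was applied with seed or inflorescence in the place of pericarp, to set the values side by side. It was passed by 10750 unigenes (7.35% of those above 0) in seed and by 9182 (7.25%) in inflorescence. The 200 most abundant held 10.2% of the seed library and 5.94% of the inflorescence library, against 3.56% in pericarp. Their lowest FPKM was 34.3 in seed and 42.4 in inflorescence, against 9.15 in pericarp, and 103 and 90 of them reached an FPKM of 100, against 8 in pericarp. The most abundant 4 supplied 38.0% of the sum of the seed list and 43.3% of the inflorescence list, against 86.9% in pericarp. Without them, the lists held 6.35% of the seed library, 3.37% of the inflorescence library and 0.465% of the pericarp library. Listed at 0 in all 5 other tissues were 33 unigenes of the seed list and 75 of the inflorescence list, against 137 members. This count moved with the level, since 14 of the 49 members that reached a pericarp FPKM of 20 and 3 of the 23 that reached 50 were listed at 0 in all 5 tissues. In mature stem, no unigene of either list reached 10% of its own tissue, and the highest mature stem FPKM was 1.33 in the seed list and 2.07 in the inflorescence list, against 572.8 for the pericarp members. Pericarp was the second tissue of 43 unigenes of the seed list, after young stem with 74, and of 14 unigenes of the inflorescence list. The 3 lists come from 1 library each and share the libraries they are compared with, so the differences between them were not tested.

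**Figure D5:**
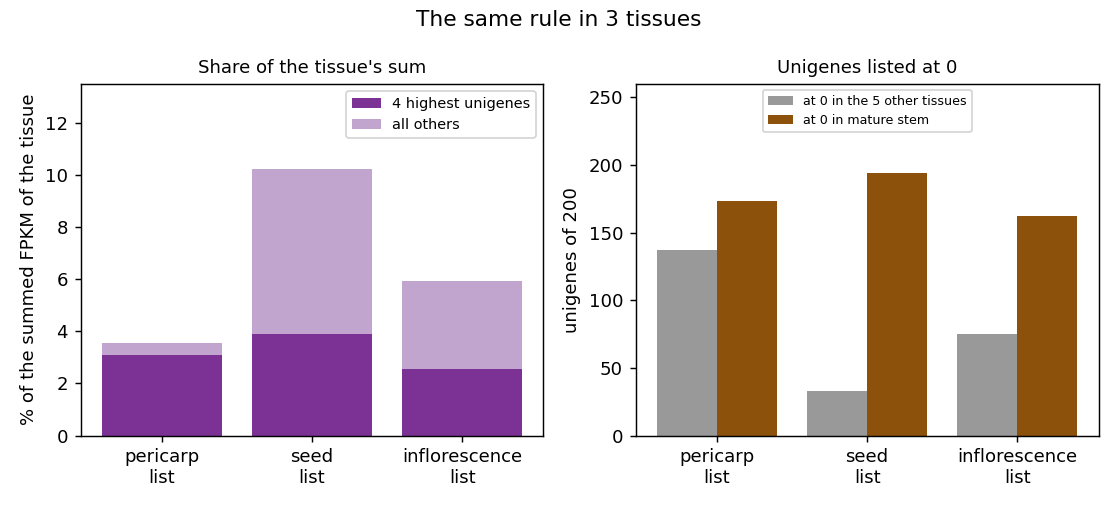
Left, the percent of the summed FPKM of a tissue held by its 200 unigenes, divided into the highest 4 and the other 196, for pericarp, seed and inflorescence; right, the number of the 200 unigenes listed at 0 in all 5 other tissues and in mature stem. The pericarp list has the smallest part from the other 196, at 0.465%, and the most unigenes at 0 in the 5 other tissues, at 137.

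Few of the members carried an enzyme name. The identifiers were compared with the study's lists of enzymes for triterpenoid, iridoid and gallotannin synthesis and of cytochrome P450s, in which the names are assigned by sequence similarity. Of 182 triterpenoid unigenes, 2 were members. Unigene015709, named as an oxidosqualene cyclase (OSC), which folds 2,3-oxidosqualene into the ring system of triterpenoids and sterols, had an FPKM of 10.2 in pericarp and 0.73 in seed. Unigene168345, named as squalene epoxidase (SQE), which makes 2,3-oxidosqualene from squalene, had 9.86 in pericarp. Apart from that seed value, both were listed at 0 in the other 6 tissues. None of the 83 iridoid, 37 gallotannin and 262 cytochrome P450 unigenes was a member. Of all 304371 unigenes only 200 were members, so the counts on lists of this size say little about their enzymes.

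Enzyme unigenes that passed the rule without reaching the 200 were of low level. Of the unigenes above 0 in pericarp, the rule was passed by 7 of 111 on the triterpenoid list, 5 of 62 on the iridoid list, 3 of 27 on the gallotannin list and 3 of 170 cytochrome P450s, against 5.45% of all unigenes. The study had filtered its cytochrome P450s by length and FPKM, and all unigenes were not filtered, so the shares of this list are not set against a like set. On the iridoid list the highest were Unigene254553 and Unigene081802, both named as geraniol 10-hydroxylase (G10H), which makes 8-hydroxygeraniol early in the iridoid pathway, with a pericarp FPKM of 6.09 and 2.96. SQE Unigene064424 had 4.62, OSC Unigene000044 had 3.31, and Unigene063226 had 2.14, named as 3-deoxy-D-arabinoheptulosonate 7-phosphate synthase (DAHPS), the entry enzyme of the shikimate pathway. All 3 were listed at 0 in the other tissues. The remaining unigenes that passed were below an FPKM of 0.5 in pericarp. Several of these were far higher in mature stem, such as secologanin synthase (SLS) Unigene107453, with 42.9 in mature stem and 0.07 in pericarp. Most triterpenoid, iridoid and cytochrome P450 unigenes with their highest level in pericarp, mature stem aside, failed the rule by their other tissues. The same held for unigenes in general, since 7149 of all 42621 with their highest level in pericarp passed. The 7-deoxyloganic acid hydroxylase (7DLH) Unigene120969, which acts on an iridoid precursor of loganin, had an FPKM of 264 in pericarp, 62.0 in mature leaf, 60.0 in seed and 49.2 in young leaf. The amyrin synthase (AS) Unigene088140, which closes the rings of the amyrin triterpenoids, had 54.6 in pericarp and 34.6 in young leaf. Pericarp was the highest of the 6 tissues for 21 iridoid, 28 triterpenoid, 5 gallotannin and 49 cytochrome P450 unigenes, which are 33.9%, 25.2%, 18.5% and 28.8% of those above 0 in pericarp, against 32.5% of all unigenes.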

How the data were processed

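RNA of 7 tissues of *C. officinalis* was sequenced by the authors, with 1 library per tissue. According to the methods of the study and the submitters' processing notes, reads were trimmed with Trimmomatic, the assemblies of 3 assemblers were joined and reduced with CD-HIT-EST, and the reads of each tissue were mapped with Bowtie and quantified with RSEM. The deposited values are FPKM per unigene. RSEM divides reads between similar unigenes, and a joined assembly can hold several pieces of a gene, so values of near-identical unigenes are less certain. The 7 tissue tables and the table of the whole series held equal values.

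Members were found on the table of the whole series with a limit of 10% and a size of 200, and ties were ordered by identifier. The members, the lists and the rule for named unigenes were chosen with earlier results of these data known. Named are the 20 most abundant members, members with an enzyme name, the 5 highest in mature stem and the 2 most abundant per second tissue. Also named are the 3 most abundant at 0 in all 5 other tissues, unigenes at both edges of the rule and the 5 most abundant unigenes that failed. Of the enzyme lists, up to 5 unigenes per list that passed are named, and of the groups of neighbouring numbers only some. Other unigenes were named after their values were seen. Only identifiers and enzyme names were taken from the study's lists. Alternatives changed the limit, the size, the tissues in the rule, the scale (TPM, made by rescaling FPKM to an equal sum), a filter on low values and a pseudocount. Python 3.11.15 with numpy 2.4.6, pandas 2.3.3 and matplotlib 3.10.9 was used. On simulated data, all 150 unigenes planted to meet the rule were found, which checks the code only.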

Additional observations from a re-analysis of the deposited data

How the results depend on the processing

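A median was taken over 200 members, so that a highest other tissue of 0% for most members gives a median of 0%. With a limit of 5%, the share of the pericarp sum was 0.422% and seed was second for 4 members, and with a limit of 20% these were 4.86% and 51, with a median of 8.13% for the highest other tissue. The share was 3.55% on TPM, 3.45% with mature stem in the rule, 3.46% for 100 unigenes and 3.78% for 500. Seed was second for 14 of 100 and 26 of 500 unigenes. Ignoring seed in the rule, 11749 unigenes passed and the share was 4.67%. Ignoring young stem, mature leaf or inflorescence gave a share of 3.79%, 3.65% and 3.65%. A pericarp FPKM of at least 5 left 993 of the 7149 unigenes. With a pseudocount of 1 or 0.1 on both values, the median of the highest other tissue was 8.42% or 1.01% of pericarp. Counts are called changed here when they moved by over 1.5 times, as a share of the list, and shares and medians when they differed after rounding for print. By this, 26 of 45 alternatives left the value unchanged, among them all those for members listed at 0 in mature stem. That count, 173 of 200, could be called changed only by a fall, and alternatives that can only raise it could not change it. No paired analysis was possible because each tissue has 1 library. For the same reason no value has an error, and the deposited FPKM give relative depths of 6 libraries but not the number of fragments behind a value.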

Other observations

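Seed was the most frequent second tissue of the abundant unigenes just outside the limit, though not of most of them. Among the members, inflorescence was second for 20 and seed for 18. At or above a pericarp FPKM of 9.15, 109 unigenes had their highest other tissue between 10% and 20% of pericarp. All members together held 3.56% of the pericarp library, and these 109 unigenes held 1.41%. Seed was their second tissue in 45 cases (41.3%), followed by mature leaf with 23, inflorescence with 17, young stem with 14 and young leaf with 10. Unigene046807 had an FPKM of 2605 in pericarp, 294 in seed and 36.8 in mature leaf, with 4.41 to 16.6 in young stem, inflorescence and young leaf and 0 in mature stem. Unigene248673 had 990.3 in pericarp, 131 in seed and 0 to 5.97 in the other tissues. Unigene008915 had 875 in pericarp and 136 in seed, and Unigene029866 had 582 and 79.2, with at most 6.29 and 12.5 elsewhere. These 4 unigenes were measured mainly in pericarp and seed. Unigene140547 differed, with 569 in pericarp and between 44.9 and 58.1 in each of the 5 other tissues. Unigene239403 had 3349 in pericarp and 545 in young stem, with 344.5 in young leaf, 262 in mature leaf and 102 in seed. These unigenes were chosen after their values were seen, and no annotation of them was used.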
